A study of Mus musculus with 8 samples.

Results

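The Hox cluster genes were examined in 8 subcutaneous tumors of mice, as every row of the expression table whose symbol is Hoxa, Hoxb, Hoxc or Hoxd followed by a number. The rule took 39 of the 27179 genes in the table, of which 11 belonged to the Hoxa cluster, 10 to Hoxb, 9 to Hoxc and 9 to Hoxd. The tumors were C26 colon carcinomas grown in male CD2F1 mice aged 13 to 18 weeks. By the study's general methods hosts were euthanized after a set loss of body weight, and its sequencing methods name no other stage. In 4 of them, labelled cxC26 scr, the injected cells were the cachexia-inducing C26 line with a scrambled CRISPR/Cas9 guide RNA as control. The other 4, labelled cxC26 IL6KOs1, came from a subclone of the same line, s1, in which CRISPR/Cas9 had disrupted the gene for interleukin-6, delivered by a lentiviral vector with puromycin selection. The knock-out group was thus derived from 1 clone, and the gene remained intact in the host cells of its tumors. Where the study followed this clone to cachexia in CD2F1 mice, the knock-out cells were injected in larger number and grew for longer. Its sequencing methods give neither cell dose nor time of growth for these tumors. Clone, cell dose, time of growth and the loss of interleukin-6 thus cannot be told apart. Whole tumors were sequenced, with the host cells they contained, so that fewer cells of a type and less RNA per cell cannot be told apart either.

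Hox genes encode homeodomain transcription factors that give cells along the head-to-tail axis of the embryo their positional identity. They lie in clusters on separate chromosomes, and their order within a cluster follows the order in which they are switched on in time and in space. Low-numbered genes at the 3′ end act in the head and neck region, high-numbered genes at the 5′ end act in the tail, the urogenital tract and the distal limb, and genes of the same number in different clusters are paralogs. Adult tissues, including the colon and fibroblasts of the body wall, keep a positional set of active Hox genes. The clusters are held silent by Polycomb complexes and kept active by proteins of the Trithorax side, while CDX factors, retinoic acid receptors and GDF11 are known to act upstream of them.

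Sequence upstream of the genes was taken from RefSeq promoters (GRCm38.p6), which held 24 windows for 22 of the 39 genes. The 250 bases before the annotated start site are shown for Hoxb8, a gene with a large decrease whose window held matches to TTTATG, a hexamer bound by CDX factors, for Hoxb4 of the same cluster, which was not called, and for Hoxa10, the called gene outside the Hoxb cluster. Capitals mark TTTATG or its reverse complement on either strand.
Hoxb8, chr11:96281655-96281904, plus strand: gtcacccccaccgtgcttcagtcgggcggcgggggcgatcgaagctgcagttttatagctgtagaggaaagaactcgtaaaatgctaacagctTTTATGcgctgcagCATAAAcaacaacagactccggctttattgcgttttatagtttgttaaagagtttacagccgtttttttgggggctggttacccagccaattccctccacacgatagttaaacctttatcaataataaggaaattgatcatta
Hoxb4, chr11:96318017-96318266, plus strand: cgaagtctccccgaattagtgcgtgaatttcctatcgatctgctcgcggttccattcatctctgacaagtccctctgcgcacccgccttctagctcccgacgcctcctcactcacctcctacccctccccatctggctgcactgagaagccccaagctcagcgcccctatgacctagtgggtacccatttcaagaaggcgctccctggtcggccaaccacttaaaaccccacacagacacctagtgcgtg
Hoxa10, chr6:52240855-52241104, minus strand: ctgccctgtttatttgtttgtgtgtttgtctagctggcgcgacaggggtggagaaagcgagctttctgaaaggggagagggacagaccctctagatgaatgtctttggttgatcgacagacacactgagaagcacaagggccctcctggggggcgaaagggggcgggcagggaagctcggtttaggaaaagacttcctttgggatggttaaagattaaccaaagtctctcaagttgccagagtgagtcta
No GENCODE M21 transcript covered any of these windows. By the wider RefSeq gene spans, the Hoxb8 window lay inside Hoxb8 and the Hoxb4 window inside Hoxb3. The Hoxb8 window held 2 matches to TTTATG, with their first bases at -157 on the shown strand and -143 on the other, counted from the start site. It also held 2 matches to TATAAA, as found in core promoters, at -199 and -110. Both motifs were searched on both strands. TTTATG was found in 5 of the 24 Hox windows (20.8%) and in 10.8% of all 32851 windows of this length, and TATAAA in 16.7% and 12.4%. Besides Hoxb8, TTTATG lay in the windows of Hoxa7, Hoxd3 and Hoxd4, which were not called, and in a window of Hoxd11, which was not tested. No window was available for Hoxb9, Hoxb7, Hoxb6, Hoxb5 or Hoxb3, so a relation of the motif to the calls was not tested. The Hoxb4 and Hoxa10 windows shown held neither motif. The second Hoxa10 window in the table, at chr6:52234940-52235189, held 1 match to TATAAA and none to TTTATG. The median GC content was 58.6% over the Hox windows and 52.4% over all windows.

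Libraries of the cxC26 scr group held 14158989 to 17048062 gene reads, and those of the cxC26 IL6KOs1 group held 14222772 to 16232176. The values are log2 CPM, the logarithm of reads scaled to library size. Il6, the targeted gene, was at 4.42, 4.33, 4.73 and 4.83 log2 CPM in the cxC26 scr tumors and at 1.99, 2.03, 2.46 and 2.04 in the cxC26 IL6KOs1 tumors, with no overlap (two-sided exact permutation test, p = 0.0286, the smallest that 4 tumors against 4 allow). Markers of colon epithelium were mostly scarce. Of 12 markers 7 were under the expression filter, among them Epcam with 36 reads and Vil1 with 10 over all 8 tumors, whereas Krt20 was at 10.1 to 10.3 log2 CPM in the cxC26 scr tumors. Fibroblast markers were abundant, and their summed level was 8021 to 10486 CPM in the cxC26 scr tumors and 5666 to 8815 CPM in the cxC26 IL6KOs1 tumors.

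All 4 clusters were expressed. In the Hoxb, Hoxc and Hoxd clusters the genes at the 5′ end had few or no reads, whereas reads extended to Hoxa13 in the Hoxa cluster. For the comparison between groups a gene had to reach 1 CPM in at least 4 of the 8 tumors, which 25 of the 39 genes did, namely 9 in Hoxa, 8 in Hoxb, 4 in Hoxc and 4 in Hoxd. Of the other 14 genes, 5 had no read in any tumor, which in each library allows up to 3 reads. These were Hoxb13, Hoxc12, Hoxd1, Hoxd12 and Hoxd13, and with the exception of Hoxd1 they belong to the posterior groups that act at the tail end of the body. Hoxb1, Hoxc11 and Hoxd11 had 1 read each and Hoxc13 had 3 reads over all tumors. The remaining 5 genes under the filter had more reads, 35 for Hoxd10, 49 for Hoxa4, 66 for Hoxc9, 101 for Hoxc10 and 115 for Hoxa11. Hoxa13, a regulator of hindgut and distal limb, was the posterior exception with 1.25 ± 0.24 reads per kilobase of exon at a common library size (RPKM) in the cxC26 scr tumors (SD, n = 4).

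Levels of different genes were compared per exon length. Hoxc6, a thoracic patterning gene, ranked first in both groups with 19.1 ± 2.6 RPKM in the cxC26 scr tumors and 19.0 ± 2.79 RPKM in the cxC26 IL6KOs1 tumors (SD, n = 4 each). In the cxC26 scr tumors it was followed by Hoxb6 at 10.1 ± 1.06 RPKM, Hoxd8 at 8.44 ± 0.65 RPKM, Hoxb8 at 7.68 ± 0.96 RPKM, Hoxa10 at 6.20 ± 0.30 RPKM, Hoxb9 at 5.19 ± 1.12 RPKM and Hoxa5 at 4.67 ± 0.69 RPKM. The levels of Hoxc6 were above those of Hoxb6 in every tumor of this group, and those of Hoxb8 were above those of Hoxa10. The ranges of the other neighbors in this order overlapped. In the cxC26 IL6KOs1 tumors Hoxd8 was second at 8.37 ± 1.59 RPKM and Hoxa5 followed at 5.45 ± 1.24 RPKM, with Hoxc4 at rank 4 at 4.64 ± 0.70 RPKM. Hoxb6 stood at rank 5, Hoxb8 at rank 8 and Hoxb9 at rank 13.

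**Figure D1:**
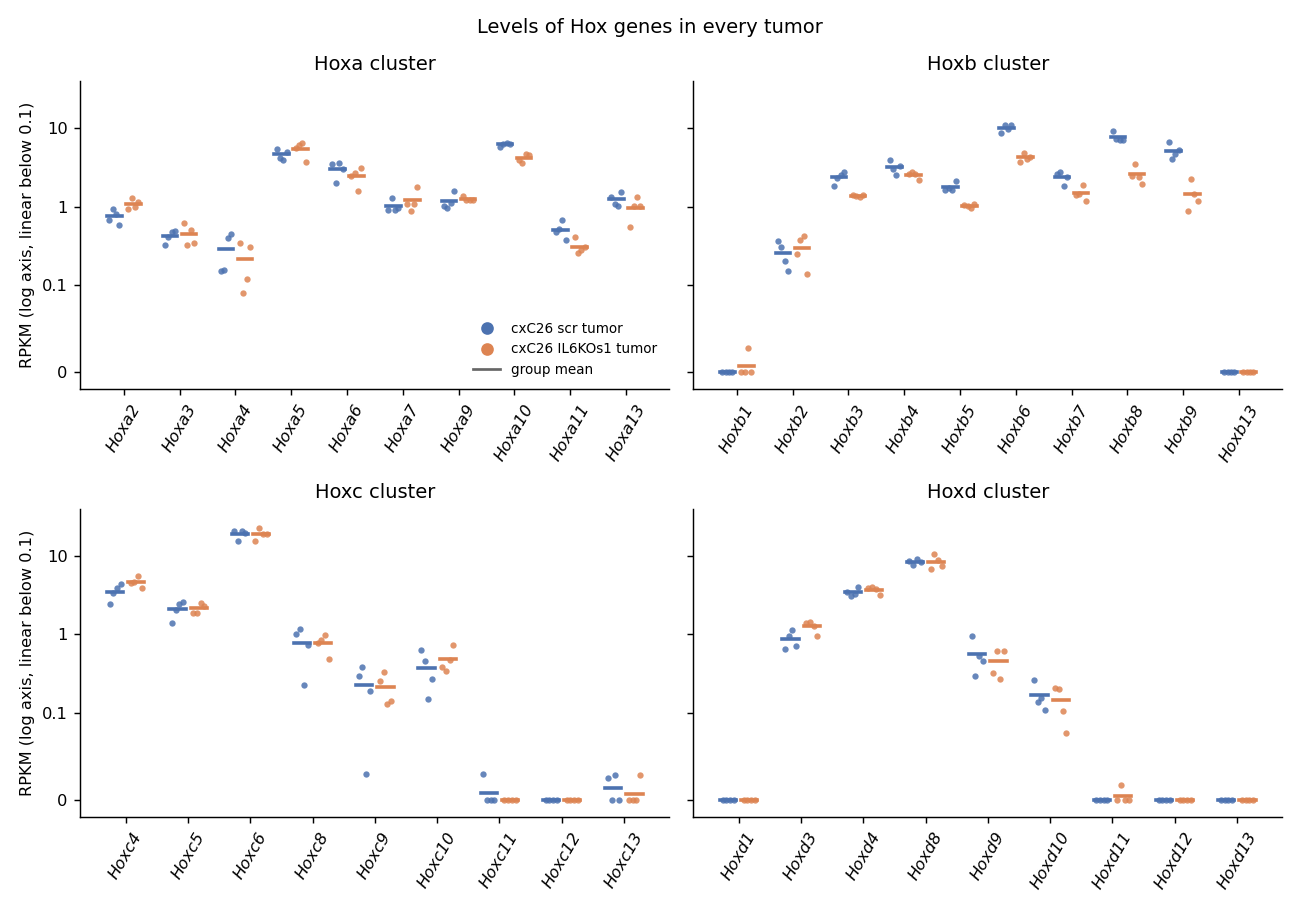
Level of 38 Hox genes in every tumor, in reads per kilobase of exon at a common library size (RPKM, log axis that is linear below 0.1), by cluster, with the genes in order of their number. Points are single tumors and bars are group means (n = 4 each). Hoxc6 is the highest gene in both groups, and the posterior ends of Hoxb, Hoxc and Hoxd lie at or near 0.

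The comparison of cxC26 IL6KOs1 with cxC26 scr tumors asked whether the Hox genes differed between tumors of the interleukin-6 knock-out clone and control tumors. Of the 25 tested Hox genes, 7 were lower in the cxC26 IL6KOs1 tumors and 0 were higher at a Benjamini-Hochberg adjusted p under 0.05 by limma. Among all 13262 tested genes 20.7% were called lower and 19.1% higher, and 39.8% in either direction, and the share of the Hox genes called lower was 28%. At an unadjusted p under 0.05, 2 Hox genes were higher, Hoxc4 and Hoxd3. Voom precision weights, as another weighting of the same fit, also gave 0 higher. By cluster the counts were unequal. In the Hoxb cluster 6 of 8 tested genes (75%) were lower, with a median log2 fold change of -0.77, whereas the median over all tested genes was -0.003. In the Hoxa cluster 1 of 9 genes was lower and the median was 0.13. In the Hoxc and Hoxd clusters 0 of 4 genes each were lower, with medians of 0.11 and 0.05. In all 4 cxC26 IL6KOs1 tumors 6 Hox genes lay below every cxC26 scr tumor, and 0 lay above every cxC26 scr tumor, where the shares among all tested genes were 19.3% and 17.8%.

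**Figure D2:**
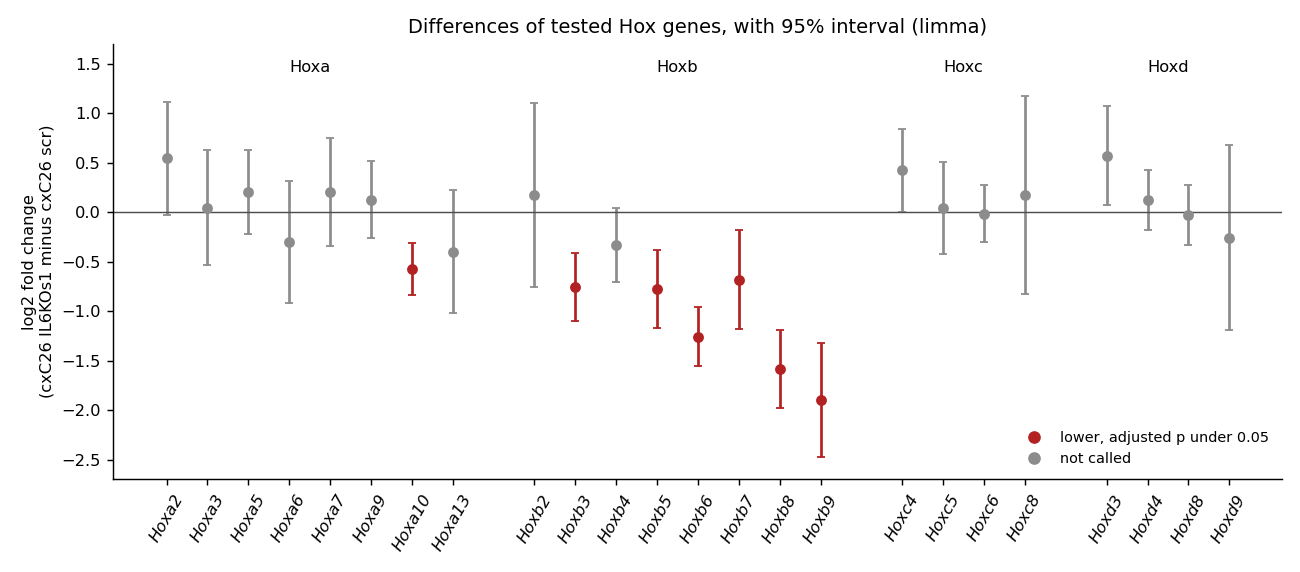
Log2 fold change (cxC26 IL6KOs1 minus cxC26 scr) of 24 tested Hox genes by cluster and number, with 95% intervals from limma. Red points are the 7 genes called lower and grey points were not called. The decreases run from -0.68 for Hoxb7 to -1.90 for Hoxb9 in the Hoxb cluster, with Hoxa10 at -0.57.

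The largest decrease was that of Hoxb9 (chr11:96271330-96276595), which helps to pattern the thoracic skeleton. It was at 4.11, 3.40, 3.61 and 3.76 log2 CPM in the cxC26 scr tumors and at 1.21, 2.54, 1.92 and 1.62 log2 CPM in the cxC26 IL6KOs1 tumors. Every cxC26 IL6KOs1 tumor was below every cxC26 scr tumor, and replicate 2 was the highest of its group. The difference was a log2 fold change of -1.90 (SE 0.26, adjusted p = 0.000253), which is 3.73-fold lower.

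Hoxb8 (chr11:96279401-96285325), also known for its part in myeloid progenitors, was at 4.59, 4.28, 4.24 and 4.22 log2 CPM in the cxC26 scr tumors. In the cxC26 IL6KOs1 tumors it was at 2.71, 3.22, 2.67 and 2.38 log2 CPM. The groups did not overlap. The log2 fold change was -1.59 (SE 0.18, adjusted p = 6.25e-05), or 3.00-fold lower.

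Hoxb6 (chr11:96292814-96301569), a marker of trunk and lateral plate mesoderm, was at 4.11, 4.43, 4.26 and 4.43 log2 CPM in the cxC26 scr tumors and at 2.85, 3.27, 3.02 and 3.07 log2 CPM in the cxC26 IL6KOs1 tumors. It was the most abundant Hoxb gene per length in both groups, and the groups did not overlap. Its log2 fold change was -1.26 (SE 0.14, adjusted p = 4.75e-05), or 2.39-fold lower. Hoxb6, Hoxb8 and Hoxb9 were the Hox genes that fell by more than 1 on the log2 scale, which 4.07% of all tested genes did.

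Between these genes lies Hoxb7 (chr11:96285604-96290163), which was at 2.02, 2.08, 1.51 and 1.88 log2 CPM in the cxC26 scr tumors and at 1.13, 1.18, 1.56 and 0.87 log2 CPM in the cxC26 IL6KOs1 tumors. Replicate 3 of the cxC26 IL6KOs1 tumors was above replicate 3 of the cxC26 scr tumors, so the groups overlapped. Hoxb7 had a log2 fold change of -0.68 (SE 0.23, adjusted p = 0.0330), and this call did not hold when any of 6 tumors was left out in turn (adjusted p 0.0536 to 0.0890). These were replicates 1, 2 and 4 of either group.

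Toward the 3′ end, Hoxb5 (chr11:96303512-96306121), which acts in enteric neural crest and lung, was at 2.18, 2.28, 2.18 and 2.56 log2 CPM in the cxC26 scr tumors and at 1.55, 1.51, 1.43 and 1.59 log2 CPM in the cxC26 IL6KOs1 tumors. Hoxb3 (chr11:96307101-96347930), a hindbrain gene, was at 2.98, 3.29, 3.41 and 3.57 log2 CPM and at 2.59, 2.54, 2.50 and 2.59 log2 CPM. Neither gene overlapped between groups. Hoxb5 was 1.72-fold lower (log2 fold change -0.78, SE 0.18, adjusted p = 0.00524), and Hoxb3 was 1.69-fold lower (log2 fold change -0.76, SE 0.16, adjusted p = 0.00291). In GENCODE M21 the antisense gene Hoxb3os covers 52.9% of the exon bases of Hoxb3 and 27.3% of those of Hoxb2, and Hoxb5os covers 3.59% of those of Hoxb5. The library kit does not keep strand, so reads of these genes and of their antisense partners cannot be told apart.

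Of the tested Hoxb genes, 2 were not called. Hoxb4, known for the expansion of blood stem cells, was at 3.34, 2.98, 2.68 and 3.08 log2 CPM in the cxC26 scr tumors and at 2.73, 2.83, 2.73 and 2.47 log2 CPM in the cxC26 IL6KOs1 tumors. Hoxb4 had a log2 fold change of -0.33 (95% interval -0.71 to 0.04, adjusted p = 0.147). Hoxb2, at the 3′ end of the tested genes, was at 0.37, 0.11, -0.44 and -0.86 log2 CPM and at -0.16, 0.42, 0.58 and -0.95 log2 CPM, with a log2 fold change of 0.17 (95% interval -0.76 to 1.10, adjusted p = 0.773). Along the chromosome the fold changes from Hoxb9 to Hoxb2 were thus -1.90, -1.59, -0.68, -1.26, -0.78, -0.33, -0.76 and 0.17, larger at the 5′ end of the cluster, without a strict order.

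The summed level of the 10 Hoxb genes was 86.2, 79.2, 75.1 and 83.9 CPM in the cxC26 scr tumors and 34.5, 43.9, 37.5 and 33.3 CPM in the cxC26 IL6KOs1 tumors. The group means were 81.1 ± 4.94 CPM and 37.3 ± 4.73 CPM (SD, n = 4 each), so that the knock-out clone's tumors were at 46.0% of the control. Without Hoxb6, Hoxb8 and Hoxb9 the sum was at 66.7% of the control. The sum of the Hoxa genes was 51.2 ± 2.99 CPM in the cxC26 scr tumors and 46.4 ± 2.81 CPM in the cxC26 IL6KOs1 tumors, that of the Hoxc genes 65.2 ± 5.6 CPM and 67.8 ± 7.31 CPM, and that of the Hoxd genes 38.4 ± 2.54 CPM and 40.5 ± 5.81 CPM (SD, n = 4 each). In these 3 clusters the groups overlapped. Hoxb was the cluster with the largest share of the summed Hox CPM in the cxC26 scr tumors, 34.4% ± 1.92, and it held 19.4% ± 1.03 in the cxC26 IL6KOs1 tumors (SD, n = 4 each). The Hoxc share was 27.6% ± 1.44 and 35.3% ± 1.44.

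**Figure D3:**
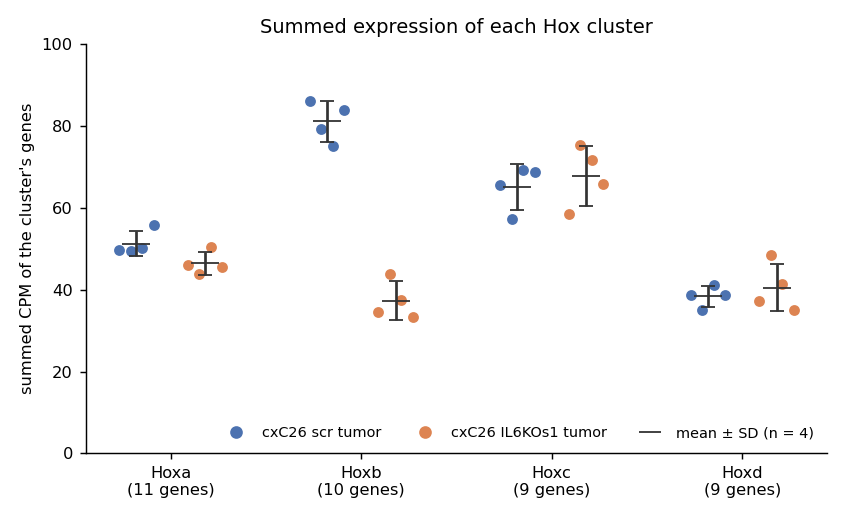
Summed CPM of the genes of each Hox cluster, on an axis from 0. Points are single tumors and bars are mean ± SD (n = 4). The Hoxb sums lie between 75.1 and 86.2 in the cxC26 scr tumors and between 33.3 and 43.9 in the cxC26 IL6KOs1 tumors, and the groups overlap in the other clusters.

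The called gene outside the Hoxb cluster was Hoxa10 (chr6:52231197-52240854), a gene of the lumbar spine and the uterus. It was at 4.24, 4.37, 4.39 and 4.37 log2 CPM in the cxC26 scr tumors and at 3.67, 3.56, 3.95 and 3.89 log2 CPM in the cxC26 IL6KOs1 tumors. The groups did not overlap, and the cxC26 scr tumors lay close together. Hoxa10 had a log2 fold change of -0.57 (SE 0.12, adjusted p = 0.00328), or 1.49-fold lower. Its neighbor Hoxa9, a leukemia-associated gene, was at 2.50, 2.43, 2.62 and 3.15 log2 CPM and at 2.91, 2.77, 2.78 and 2.75 log2 CPM, with a log2 fold change of 0.13 (95% interval -0.27 to 0.52). Hoxa13 was at 1.73, 1.43, 1.36 and 1.95 log2 CPM in the cxC26 scr tumors and at 0.47, 1.36, 1.71 and 1.33 log2 CPM in the cxC26 IL6KOs1 tumors. Its log2 fold change was -0.40 (95% interval -1.02 to 0.22, adjusted p = 0.285).

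Anterior and middle Hoxa genes were not called. Hoxa5, which acts in lung and gut, was at 3.36, 2.99, 2.90 and 3.24 log2 CPM in the cxC26 scr tumors and at 3.39, 3.53, 3.60 and 2.79 log2 CPM in the cxC26 IL6KOs1 tumors, with a log2 fold change of 0.20 (95% interval -0.22 to 0.63). Hoxa2, a gene of the second pharyngeal arch, was at 0.30, 0.76, 0.53 and 0.10 log2 CPM and at 0.76, 1.23, 0.85 and 1.03 log2 CPM, and the highest cxC26 scr tumor reached the lowest cxC26 IL6KOs1 tumor. The log2 fold change of Hoxa2 was 0.55 (95% interval -0.03 to 1.12, adjusted p = 0.119). Hoxa3, a gene of thymus and parathyroid development, was at 0.96, 1.32, 1.54 and 1.56 log2 CPM and at 1.90, 0.99, 1.62 and 1.07 log2 CPM. The groups of Hoxa3 overlapped over most of their range.

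Hoxa6 and Hoxa7 act in the thoracic region. Hoxa6 was at 1.63, 0.82, 1.68 and 1.40 log2 CPM in the cxC26 scr tumors and at 1.13, 1.23, 0.51 and 1.45 log2 CPM in the cxC26 IL6KOs1 tumors. Hoxa7 was at 1.38, 1.90, 1.40 and 1.50 log2 CPM and at 1.64, 1.36, 1.65 and 2.34 log2 CPM. Over the 8 Hoxa genes that were not called, the log2 fold changes ran from -0.40 to 0.55.

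The Hoxc genes that passed the filter were Hoxc4, Hoxc5, Hoxc6 and Hoxc8, which pattern the neck and thorax. Hoxc6 was at 5.65, 5.22, 5.67 and 5.54 log2 CPM in the cxC26 scr tumors and at 5.23, 5.76, 5.51 and 5.51 log2 CPM in the cxC26 IL6KOs1 tumors. Its log2 fold change was -0.02 with a 95% interval of -0.30 to 0.27. Hoxc4 was at 2.65, 3.12, 3.31 and 3.49 log2 CPM and at 3.54, 3.56, 3.84 and 3.33 log2 CPM, where replicate 1 was the lowest cxC26 scr tumor. Its log2 fold change was 0.42 (95% interval 0.01 to 0.84, unadjusted p = 0.0469, adjusted p = 0.0985).

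Hoxc5 was at 2.12, 2.66, 2.93 and 2.99 log2 CPM in the cxC26 scr tumors and at 2.56, 2.52, 2.95 and 2.85 log2 CPM in the cxC26 IL6KOs1 tumors, with replicate 1 of the cxC26 scr tumors lowest as for Hoxc4. Hoxc8 was at 1.54, 1.72, -0.58 and 1.08 log2 CPM and at 1.17, 1.27, 1.50 and 0.50 log2 CPM. Replicate 3 of the cxC26 scr tumors was also the lowest of all 8 tumors in Hoxc9, at -3.25 log2 CPM, and in Hoxc10, at -1.66 log2 CPM. The log2 fold change of Hoxc8 was 0.17 (95% interval -0.83 to 1.17) and it was -0.34 without that tumor.

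In the Hoxd cluster the expressed genes were Hoxd3, Hoxd4, Hoxd8 and Hoxd9. Hoxd8, a gene of the trunk, was at 4.55, 4.39, 4.67 and 4.52 log2 CPM in the cxC26 scr tumors and at 4.24, 4.84, 4.59 and 4.35 log2 CPM in the cxC26 IL6KOs1 tumors. Its log2 fold change was -0.03 (95% interval -0.33 to 0.27). Hoxd4, a gene of the hindbrain and neck, was at 3.34, 3.18, 3.25 and 3.56 log2 CPM and at 3.52, 3.59, 3.48 and 3.24 log2 CPM, with a log2 fold change of 0.12 (95% interval -0.18 to 0.43).

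Hoxd3, which acts in the cervical vertebrae, was at 1.45, 2.02, 2.27 and 1.60 log2 CPM in the cxC26 scr tumors and at 2.57, 2.59, 2.44 and 2.01 log2 CPM in the cxC26 IL6KOs1 tumors. Of the cxC26 IL6KOs1 tumors 3 were above every cxC26 scr tumor and replicate 4 was within their range. The log2 fold change was 0.57 (95% interval 0.07 to 1.07, unadjusted p = 0.0286, adjusted p = 0.0663), and Hoxd3 was called higher without replicate 3 of the cxC26 scr tumors or without replicate 4 of the cxC26 IL6KOs1 tumors (adjusted p = 0.0382 and 0.0381). Hoxd3 and Hoxd4 share 388 exon bases in GENCODE M21. The gene Gm28230, on the same strand, covers 53.09% of the exon bases of Hoxd3 and 39.15% of those of Hoxd4, and has no row in the expression table. The counting could split or drop reads in these overlaps. Hoxd9, a gene of the lumbar region and the limb, was at 1.05, -0.62, 0.21 and 0.01 log2 CPM and at -0.50, 0.42, -0.73 and 0.43 log2 CPM. Over all 18 tested Hox genes that were not called, the 95% interval of the log2 fold change stayed within 1 in either direction for 12, and the widest bounds were -1.19 and 1.17.

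Genes beside the clusters were compared next. Within 1 Mb of the Hoxb cluster 29 other genes were tested, of which 8 were lower and 1 was higher in the cxC26 IL6KOs1 tumors, with a median log2 fold change of -0.18. The share of all tested genes called lower was 20.7%. The nearest tested neighbors before Hoxb13 were Atp5g1, a subunit of ATP synthase, at -0.04, Ube2z, a ubiquitin-conjugating enzyme, at -0.33 (adjusted p = 0.0100), and Snf8, an ESCRT subunit, at 0.07 log2 fold change. The nearest tested neighbors after Hoxb1 were Snx11, a sorting nexin, at -0.34 (adjusted p = 0.0467) and Cbx1, a heterochromatin protein, at -0.30 (adjusted p = 0.0228). The largest decrease among these 29 genes was -1.44, for 4833417C18Rik, and the median Hoxb gene at -0.77 lay below all of them but this 1. That gene, 1 of the 8 lower ones, passed the expression filter only through the 4 cxC26 scr tumors. Its call was thus favored by that selection, and without the filter its adjusted p by limma was 0.0565. Beside Hoxa 2 of 8 tested flanking genes were higher and 1 was lower, with a median log2 fold change of 0.02. Beside Hoxc 10 of 33 were higher and 2 were lower, with a median of 0.13. Beside Hoxd 0 of 6 were called in either direction, and the median was -0.01. The share of all tested genes called higher was 19.1%. Of the Hoxc flanking genes called higher, Gpr84 passed the expression filter only through the 4 cxC26 IL6KOs1 tumors.

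**Figure D4:**
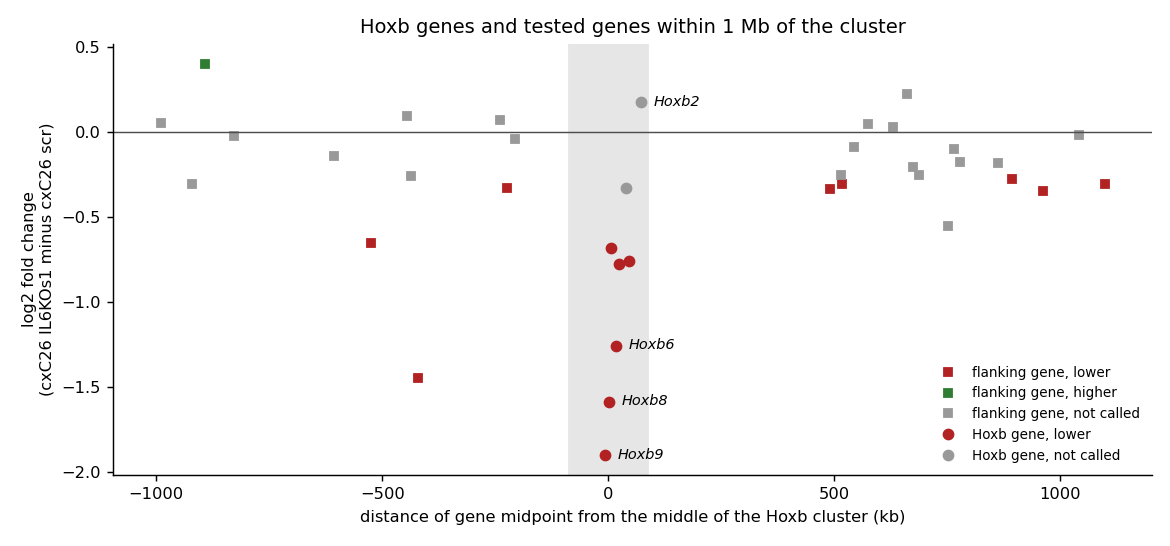
Log2 fold change (cxC26 IL6KOs1 minus cxC26 scr) of the tested Hoxb genes (circles) and of 29 other tested genes within 1 Mb (squares), against distance in kb from the middle of the cluster, with the cluster shaded. Red is lower, green is higher and grey was not called. The flanking median is -0.18 and Hoxb9 is at -1.90.

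Upstream regulators of Hox genes were given by a list of 10, of which 7 were tested, with 1 higher and 3 lower and a median log2 fold change of -0.30. Among all tested genes 19.1% were called higher and 20.7% lower, with a median of -0.003. Cdx2, the intestinal homeobox factor that activates Hox genes in the embryo, was at 0.96, 0.60, 1.28 and 0.19 log2 CPM in the cxC26 scr tumors and at -3.44, -4.79, -4.98 and -4.86 log2 CPM in the cxC26 IL6KOs1 tumors. It had 107 reads over the 4 cxC26 scr tumors and 1 read over the 4 cxC26 IL6KOs1 tumors. The ratio was 103 with an exact 95% counting interval of 18.2 to 4120. Cdx2 passed the expression filter only through the 4 cxC26 scr tumors. Its call, 1 of the 3 lower ones (limma, adjusted p = 4.18e-05), was thus favored by that selection. Without the filter the adjusted p by limma was 0.000530. Cdx1 had 1 read and Cdx4 had 41 reads over all tumors. Gdf11, a ligand that times the onset of posterior Hox genes, was at 3.90, 3.63, 3.89 and 3.85 log2 CPM and at 2.31, 2.77, 2.44 and 2.24 log2 CPM, without overlap (log2 fold change -1.38, adjusted p = 6.38e-05). Rara, a retinoic acid receptor, fell by 0.34 on the log2 scale (adjusted p = 0.0322), and Rarg, the receptor of highest level in this list, was not called at 0.17.

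Among the homeobox genes that lie beside Hox clusters or form the ParaHox group, Pdx1, the pancreatic and duodenal factor, was the tested member of 6. It was at 4.07, 3.83, 3.90 and 3.92 log2 CPM in the cxC26 scr tumors and at 1.69, 1.68, 2.01 and 1.96 log2 CPM in the cxC26 IL6KOs1 tumors, with no overlap (log2 fold change -2.09, adjusted p = 2.61e-06). Evx1, Gsx2 and Mnx1 had no reads, Evx2 had 1 read and Gsx1 had 5.

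Of the TALE cofactors, which bind DNA together with Hox proteins, 6 of 9 were tested, with 1 higher and 2 lower and a median log2 fold change of -0.16. Of all tested genes 39.8% were called in either direction. Meis3 fell by 0.81 (adjusted p = 0.00246) and Meis2 rose by 0.35 on the log2 scale (adjusted p = 0.0229). Pbx2 was at -0.22 (adjusted p = 0.0583).

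Of the 10 proteins of the Trithorax side, all tested, 4 were lower and 0 were higher by limma, beside 20.7% and 19.1% of all tested genes, and the median log2 fold change was -0.11. At an unadjusted p under 0.05, 2 of them were higher, Ash2l and Dpy30 at 0.21 and 0.23. Kdm6b, a demethylase that removes the repressive mark H3K27me3, was at 6.55, 6.32, 6.87 and 6.88 log2 CPM in the cxC26 scr tumors and at 5.65, 4.79, 4.96 and 5.18 log2 CPM in the cxC26 IL6KOs1 tumors (log2 fold change -1.51, adjusted p = 9.15e-05). Its relative Kdm6a fell by 0.45 (adjusted p = 0.0167), the H3K4 methyltransferase Kmt2b by 0.61 (adjusted p = 0.00241) and the complex subunit Rbbp5 by 0.44 on the log2 scale (adjusted p = 0.00114). Psip1 and Ash2l, the members of highest level, were at -0.03 and 0.21 and were not called.

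Of the 17 Polycomb genes, all tested, 6 were lower and 0 were higher by limma, with a median log2 fold change of -0.22, beside 20.7% and 19.1% of all tested genes. At an unadjusted p under 0.05 the number higher was also 0. Cbx2, a chromodomain subunit, was at 4.98, 4.69, 5.02 and 4.82 log2 CPM in the cxC26 scr tumors and at 3.72, 4.04, 4.10 and 3.96 log2 CPM in the cxC26 IL6KOs1 tumors (log2 fold change -0.92, adjusted p = 0.000183). The ubiquitin ligase Rnf2 fell by 0.76 (adjusted p = 0.000110), Phc1 by 0.52 (adjusted p = 0.00242), Mtf2 by 0.44 (adjusted p = 0.00505), Suz12 by 0.42 (adjusted p = 0.00184) and Eed by 0.28 on the log2 scale (adjusted p = 0.0131). The methyltransferase Ezh2 was at -0.11, and Phc2 and Bmi1, the members of highest level, were at 0.09 and -0.04.

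**Figure D5:**
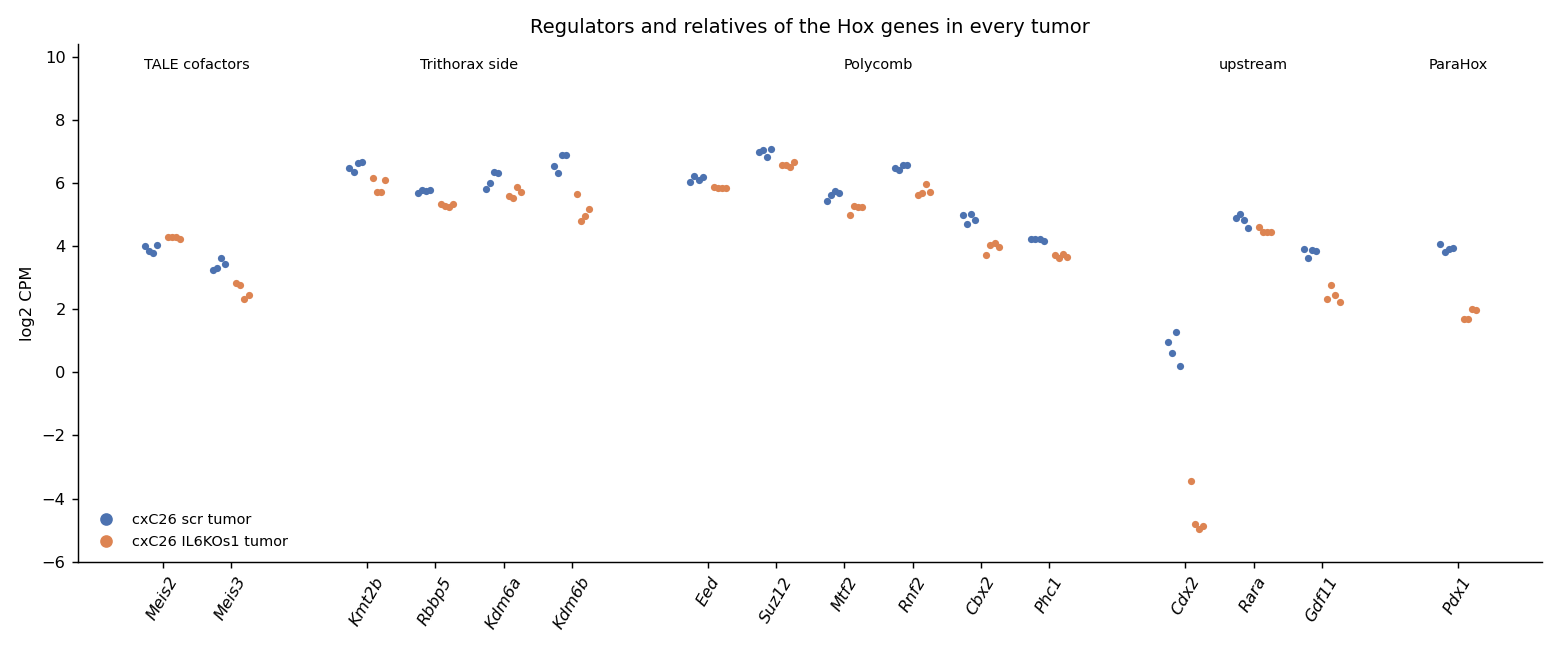
Log2 CPM in every tumor of called members of the lists of TALE cofactors, Trithorax side proteins, Polycomb proteins, upstream regulators and ParaHox genes. Points are single tumors (n = 4 per group). Meis2 is higher in the cxC26 IL6KOs1 tumors and the other genes shown are lower, and Cdx2 is near the lowest value of the libraries in the cxC26 IL6KOs1 tumors, where it had 1 read in all.

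Of 10 genes known as Hox targets in development 3 were tested, and the other 7 were under the expression filter. Of the 3, 1 was higher and 1 lower, beside 19.1% and 20.7% of all tested genes. Bmp2, a growth factor, rose from 6.17, 5.36, 5.57 and 5.76 log2 CPM in the cxC26 scr tumors to 7.26, 7.07, 7.29 and 7.25 log2 CPM in the cxC26 IL6KOs1 tumors (log2 fold change 1.51, adjusted p = 2.16e-05). Shox2, a limb and heart gene, fell by 0.47 on the log2 scale (adjusted p = 0.0292), and Itga8, with 94 reads in all, was at 1.23 (adjusted p = 0.162). Of the noncoding genes of the clusters, 10 of 16 were in the table and 1 was tested, the antisense gene Hoxa11os. It was at 1.01, 1.13, 0.72 and 0.34 log2 CPM in the cxC26 scr tumors and at -1.32, 0.49, -0.59 and 0.27 log2 CPM in the cxC26 IL6KOs1 tumors (log2 fold change -1.09, adjusted p = 0.0554). It shares 800 exon bases, 35.0% of those of Hoxa11, with that gene on the opposite strand, so their reads cannot be told apart here. Hotair, which lies in the Hoxc cluster, had no reads. Mature microRNAs of the clusters are not captured by poly(A) selection, and their host rows held 17 reads or fewer.

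RNA levels of markers of some cell types also differed between groups. The counts below stand beside 20.7% of all tested genes called lower and 19.1% called higher. Of 9 fibroblast markers 4 fell, Dpt, Pdgfra, Pdgfrb and Col3a1, and 1 rose, Lum. All 4 pan-leukocyte markers rose, from a summed 146 to 176 CPM to 247 to 511 CPM, and all 5 macrophage markers rose, from 379 to 547 CPM to 771 to 1123 CPM. So did all 4 tested mast cell markers, from 7.45 to 11.0 CPM to 18.9 to 101.0 CPM. Of 5 tested markers of colon epithelium, Cdh1 and Krt18 rose by 1.46 and 3.20 on the log2 scale, and 2 fell, among them Cdx2. As said above, Cdx2 passed the filter through the cxC26 scr tumors alone. Among 6 endothelial markers 1 was lower, and 0 of 5 mural, 0 of 5 skeletal muscle, 0 of 1 keratinocyte and 0 of 3 adipocyte markers tested were called by limma. The part of these markers in the lower level of the Hoxb genes was not tested.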

How the data were processed

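Bulk RNA sequencing was carried out on poly(A) RNA from 8 tumors. According to the methods and the submitters' processing notes, the authors used Trimmomatic for trimming, Hisat2 for alignment to mm10, featureCounts for gene counting and limma-voom for normalization. Each deposited value is a log2 CPM of 1 gene in 1 tumor. Annotation and strandedness of the counting are not given in the sources used here. Whole reads were recovered by inverting the voom offset of 0.5 reads and 1 read in the library size, and 100% came out whole within a tolerance of 0.01 reads. They gave the depth per tumor, which limits genes with few reads, and intervals on reads cover counting error only.

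Tumors were grouped by their titles. The log2 values of 13262 genes that reached 1 CPM in 4 or more tumors were tested with limma 3.58.1 in R 4.3.3 (lmFit, eBayes with trend), without covariates, with Benjamini-Hochberg adjustment over all tested genes and a threshold of 0.05. The labels number the tumors without naming the mouse, so p-values measure the spread between these samples, which may in part be technical. RPKM used GENCODE M21 exon lengths, which were known for all 39 genes, and coordinates are those of RefSeq GRCm38.p6. Fits were tested on simulated data. The members and lists were chosen with earlier results of these data known. So was the rule that took from each list the 2 genes of highest level and up to 4 called genes. Suz12, Eed and Ezh2, which this rule did not take, were added after their values had been seen. Alternatives were 2 other filters, 2 normalizations, a replicate block, 2 variance models, a pseudocount of 1 CPM, windows of 0.5 and 2 Mb and each tumor left out in turn. The replicate numbers did not pair the tumors. Some genes of the lists and 1 Hox gene are counted but not reported here by name.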

Additional observations from a re-analysis of the deposited data

Results flagged for a closer look

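In 60 sets of 4 tumors (25 Hox genes, the 4 cluster sums and Il6, in each group) the distance of the highest or lowest tumor from the next was compared with the range of the group by Dixon's test at 95%. A tumor stood apart in 4 sets, where chance gives about 3. Hoxa10 was lowest in replicate 1 of the cxC26 scr tumors, at 4.24 log2 CPM, with the others at 4.37 to 4.39. Hoxb8 was highest in replicate 1 of the cxC26 scr tumors, at 4.59 log2 CPM against 4.22 to 4.28. The summed level of the Hoxa genes was highest in replicate 4 of the cxC26 scr tumors, at 55.7 CPM against 49.4 to 50.2 CPM. Il6 was highest in replicate 3 of the cxC26 IL6KOs1 tumors, at 2.46 log2 CPM against 1.99 to 2.04.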

How the results depend on the processing

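Hoxa10, Hoxb6, Hoxb8, Hoxb3, Hoxb5 and Hoxb9 were called lower under each of the 16 alternatives in which they were tested, and the Hoxb7 call was lost without the filter (adjusted p = 0.0819), with the replicate block (adjusted p = 0.0660) and without any of the 6 tumors named above. The adjusted p over its alternatives ran from 0.0112 to 0.0890. Under the stricter filter, a mean of 3 log2 CPM, 8 Hox genes were tested and 3 were lower. The replicate numbers did not mark pairs, as the deviations of same-numbered tumors correlated at -0.06, 0.06, 0.02 and -0.06, and with the replicate block 6 Hox genes were lower and 0 higher. When each tumor was left out in turn, 6 to 7 Hox genes were lower and 0 to 1 higher, and of all genes 2023 to 2540 were higher and 2193 to 2674 lower. Without a variance trend 1 Hox gene was higher, Hoxa2 (log2 fold change 0.55, adjusted p = 0.0303), and with quantile normalization Hoxb4 was lower (-0.47, adjusted p = 0.0458). Quantile normalization moved the log2 ratio of the Hoxa sum from -0.14 to -0.25. It reversed genes near 0, which became -0.13 for Hoxa3, -0.021 for Hoxa9, -0.019 for Hoxb2, -0.12 for Hoxc5, 0.024 for Hoxc6 and -0.025 for Hoxc8. Leaving out a tumor gave -0.12 to 0.18 for Hoxa3, -0.044 to 0.48 for Hoxb2, -0.14 to 0.15 for Hoxc5, -0.12 to 0.074 for Hoxc6, -0.34 to 0.43 for Hoxc8, -0.14 to 0.059 for Hoxd8 and -0.52 to 0.038 for Hoxd9. The cause was not tested. With windows of 0.5 and 2 Mb the flanking median was 0.054 and 0.069 for Hoxc and 0.11 and 0.082 for Hoxd, and it was -0.26 for Hoxb at 0.5 Mb. Depth limits the genes with few reads, of which Hoxb2 and Hoxd9 had the widest intervals besides Hoxc8.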
